A study of Mus musculus with 4 samples.

Results

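The mitochondrial ribosomal protein genes are the nuclear genes whose names begin with Mrpl (large subunit) or Mrps (small subunit) followed by a number. Of the 53465 genes in the deposited table, 78 protein-coding genes carry such a name, 49 of the large and 29 of the small subunit, and all 78 passed the filter on low counts. RNA sequencing measured them in CD8+ T cells of the mouse spleen, activated for 24 h on beads coated with antibodies to CD3 and CD28, which stand in for antigen and costimulation. The 4 libraries were 2 labelled PP2Cm KO and 2 labelled WT. PP2Cm is the mitochondrial phosphatase encoded by Ppm1k, which switches on the breakdown of branched-chain amino acids, and the knockout is labelled PP2Cm-/- in the treatment text, with no promoter, Cre line, strain, age or sex given. Biological replicates are named in the titles, and nothing more is said of the animals.

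The genotype labels conflict: each sample's title and genotype field name 1 genotype, and its description code, which heads the column of the table, begins with the other. Groups here follow the title and genotype field, and every sign would turn if the codes were right. Ppm1k itself stood at 11.8 and 14.3 CPM (counts of the gene scaled to a common library size) in the libraries labelled KO, against 7.84 and 5.53 CPM in those labelled WT, which goes against the titles. A count over the whole gene cannot show whether a deleted exon was read. Libraries held 13394074 and 14199020 counts for the labelled KO and 12967251 and 17316284 counts for the labelled WT. T cell identity was checked on 8 genes of CD8 T cells, all detected, whose summed level was 2524 and 2361 CPM in the labelled KO and 2832 and 2592 CPM in the labelled WT libraries. Of 7 marker lists of other cells, 4 summed lower in both libraries labelled KO. B cell genes added up to 269 to 305 CPM in the labelled KO and 366 to 427 CPM in the labelled WT libraries, and the list of NK and gamma-delta T cells to 101 to 102 CPM in the labelled KO and 107 to 122 CPM in the labelled WT. Most of that last sum was Eomes, which CD8 T cells also express (1065 and 1111 counts in the labelled KO, 1098 and 1576 in the labelled WT), while Trdc, the gamma-delta receptor gene, ran the other way with 138 and 133 counts in the labelled KO and 105 and 118 in the labelled WT. Genes of erythroid cells and platelets summed to 3.16 to 4.5 CPM in the labelled KO and 6.38 to 12.2 CPM in the labelled WT, and the stromal and endothelial list to 18.0 to 19.0 CPM in the labelled KO and 31.2 to 37.5 CPM in the labelled WT. Nearly all of the stromal list's counts came from Pecam1, which T cells also express, and its 6 other genes had at most 9 counts in a library. The list of CD4 and regulatory T cells summed higher, to 40.9 to 46.7 CPM in the labelled KO and 38.2 to 39.0 CPM in the labelled WT. Ikzf2 gave the most counts in it, except in labelled WT replicate 2. Zbtb7b, a factor of the CD4 lineage, stood at 120 and 102 counts in the labelled KO and 124 and 283 in the labelled WT. Cd4 had 133 and 74 counts in the labelled KO and 39 and 80 in the labelled WT. Foxp3 had 31 and 19 counts in the labelled KO and 16 and 12 in the labelled WT. Cd40lg had 16 and 22 counts in the labelled KO and 13 and 19 in the labelled WT. Sums of myeloid genes (4.22 to 4.59 CPM in the labelled KO and 3.69 to 8.06 CPM in the labelled WT) and of dendritic cell genes (7.07 to 11.9 CPM in the labelled KO and 11.4 to 12.2 CPM in the labelled WT) overlapped. Among the defining markers, S100a9, Ly6g, Alas2, Col3a1, Cdh5 and Kdr were at 0 in all 4 libraries. The part of these cells in the values below was not tested, and in bulk samples fewer cells of a type and less RNA per cell cannot be told apart.

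Mitochondria keep their own ribosome, the mitoribosome, which translates the few mRNAs of the mitochondrial genome into core subunits of the respiratory chain and ATP synthase. Its 2 ribosomal RNAs come from mitochondrial DNA, while every protein in it is made in the cytosol from nuclear genes and imported. The small subunit binds and decodes the mRNA, and the large subunit joins amino acids and passes the new protein into the inner membrane. Activated T cells enlarge their mitochondria, and mitochondrial translation is known to serve their effector function.

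Levels of single members spanned a wide range per unit of gene length. Mean FPKM, the deposited count per kilobase of gene, scaled to the size of the library, ran over the 4 libraries from 2.61 to 133 in the large subunit (median 18.6) and from 2.35 to 57.0 in the small subunit (median 12.9). The median over all 13528 genes tested was 5.17 FPKM. The highest member was Mrpl12 (ENSMUSG00000039640, chromosome 11 from 120484613 to 120489065 in GRCm38), the stalk protein of the large subunit, which is also known to bind the mitochondrial RNA polymerase. It stood at 146 and 127 FPKM in the libraries labelled KO, against 112 and 145 FPKM in those labelled WT, so the labels overlapped. Mrpl34, a small protein of the large subunit, had 101 and 84.8 FPKM in the labelled KO and 93.8 and 117 FPKM in the labelled WT libraries. Mrpl54 followed with 62.1 and 54.0 FPKM in the labelled KO and 58.4 and 64.5 FPKM in the labelled WT libraries. Mrpl12 lay above Mrpl34 within each library, though their ranges over the libraries overlapped. Every library of both lay above every library of Mrpl54.

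In the small subunit Mrps6, Mrps28 and Mrps7 were highest. Mrps6 stood at 57.2 ± 0.219 FPKM in the labelled KO and 56.7 ± 7.86 FPKM in the labelled WT libraries, and Mrps28 at 53.1 ± 4.22 FPKM in the labelled KO and 58.8 ± 9.77 FPKM in the labelled WT libraries (SD, n = 2 each). Their order does not hold beyond that spread, and Mrps7 lay below both, at 45.5 ± 4.43 FPKM in the labelled KO and 42.6 ± 4.7 FPKM in the labelled WT libraries (SD, n = 2 each). The 3 lowest were Mrpl53, Mrpl32 and Mrpl48 in the large subunit and Mrps17, Mrps10 and Mrps36 in the small subunit. Their means ran from 2.27 to 3.71 FPKM in the labelled KO (Mrps17 and Mrps10) and from 2.02 to 3.9 FPKM in the labelled WT libraries (Mrpl53 and Mrps36), and most neighbours in that order did not differ beyond their spread. The gene lengths behind the deposited FPKM came within 1% of the exon total in GENCODE M21 for 3 of the 78 members, so the order of neighbours in level rests on the lengths the authors used.

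**Figure D1:**
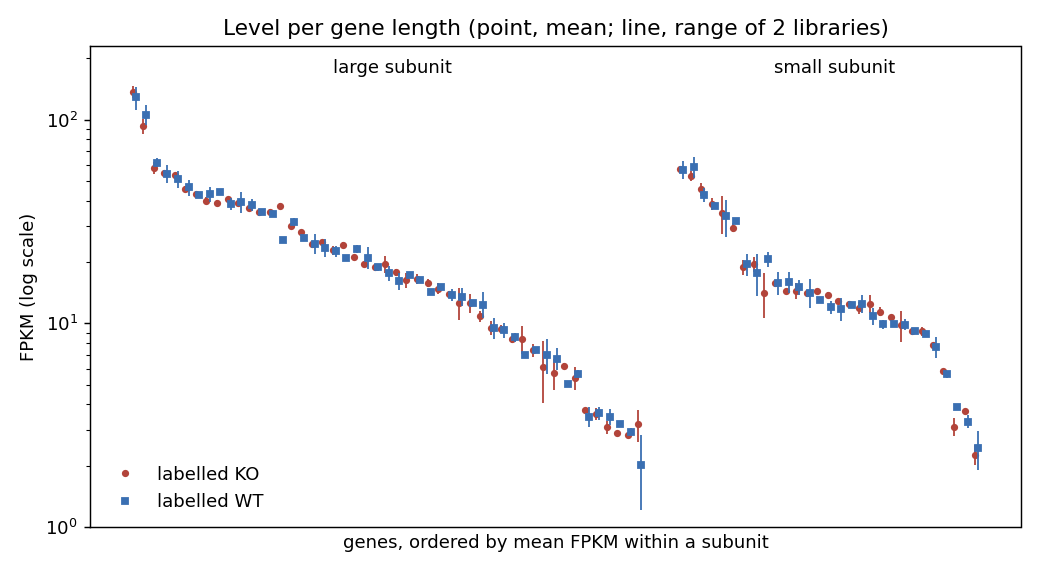
Each member's level in FPKM (log axis), ordered by mean level within the large and the small subunit; points are means of 2 libraries, lines run from the lower to the higher library, and labelled KO stands left of labelled WT. The large subunit runs from 133 to 2.61 FPKM and the small subunit from 57.0 to 2.35 FPKM, and the labels stand furthest apart by ratio for Mrpl53, Mrpl9 (37.9 FPKM in the labelled KO and 25.7 FPKM in the labelled WT) and Mrps21.

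Between the labels the mitoribosome genes stayed close to 0 change. Of the 78 members, 30 were above and 48 below 0 in log2 fold change (labelled KO over labelled WT). Their median of −0.01 was the same to 2 decimals as that over all 13528 genes. By edgeR with Benjamini-Hochberg adjustment over all genes, 0 members passed an adjusted p of 0.05, where 0.207% of all genes did (28 genes; 8 to 304 as single libraries were left out). At an unadjusted p under 0.05 there was 1 member, or 1.28%, with a higher level in the labelled KO, where the share over all genes was 12.9% (5.7% higher and 7.23% lower). DESeq2 called 1 member, with 1.88% of all genes, and limma on log2(FPKM + 1) called 0 members, with 5 of all 13528 genes. Log2 fold changes lay within 0.2 of 0 for 68 members, or 87.2%, against 52.7% of all genes, and beyond 0.5 for 3 members, or 3.85%, against 14.9%. Members were also higher in level than all genes (median 15.1 against 5.17 FPKM), with a smaller median SE (0.151 against 0.176). The share within 0.2 was 77.9% for the 95 cytosolic ribosomal protein genes tested. It was 72.7% for 55 other genes of mitochondrial translation. The 95% interval stayed inside a log2 fold change of ±1 for 75 members and inside ±0.5 for 50, so smaller shifts of single members are not excluded. Both libraries of 1 label lay beyond both of the other in 14 members, 8 higher and 6 lower in the labelled KO, or 17.9% against 44.9% of all genes (21.5% higher and 23.3% lower).

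**Figure D2:**
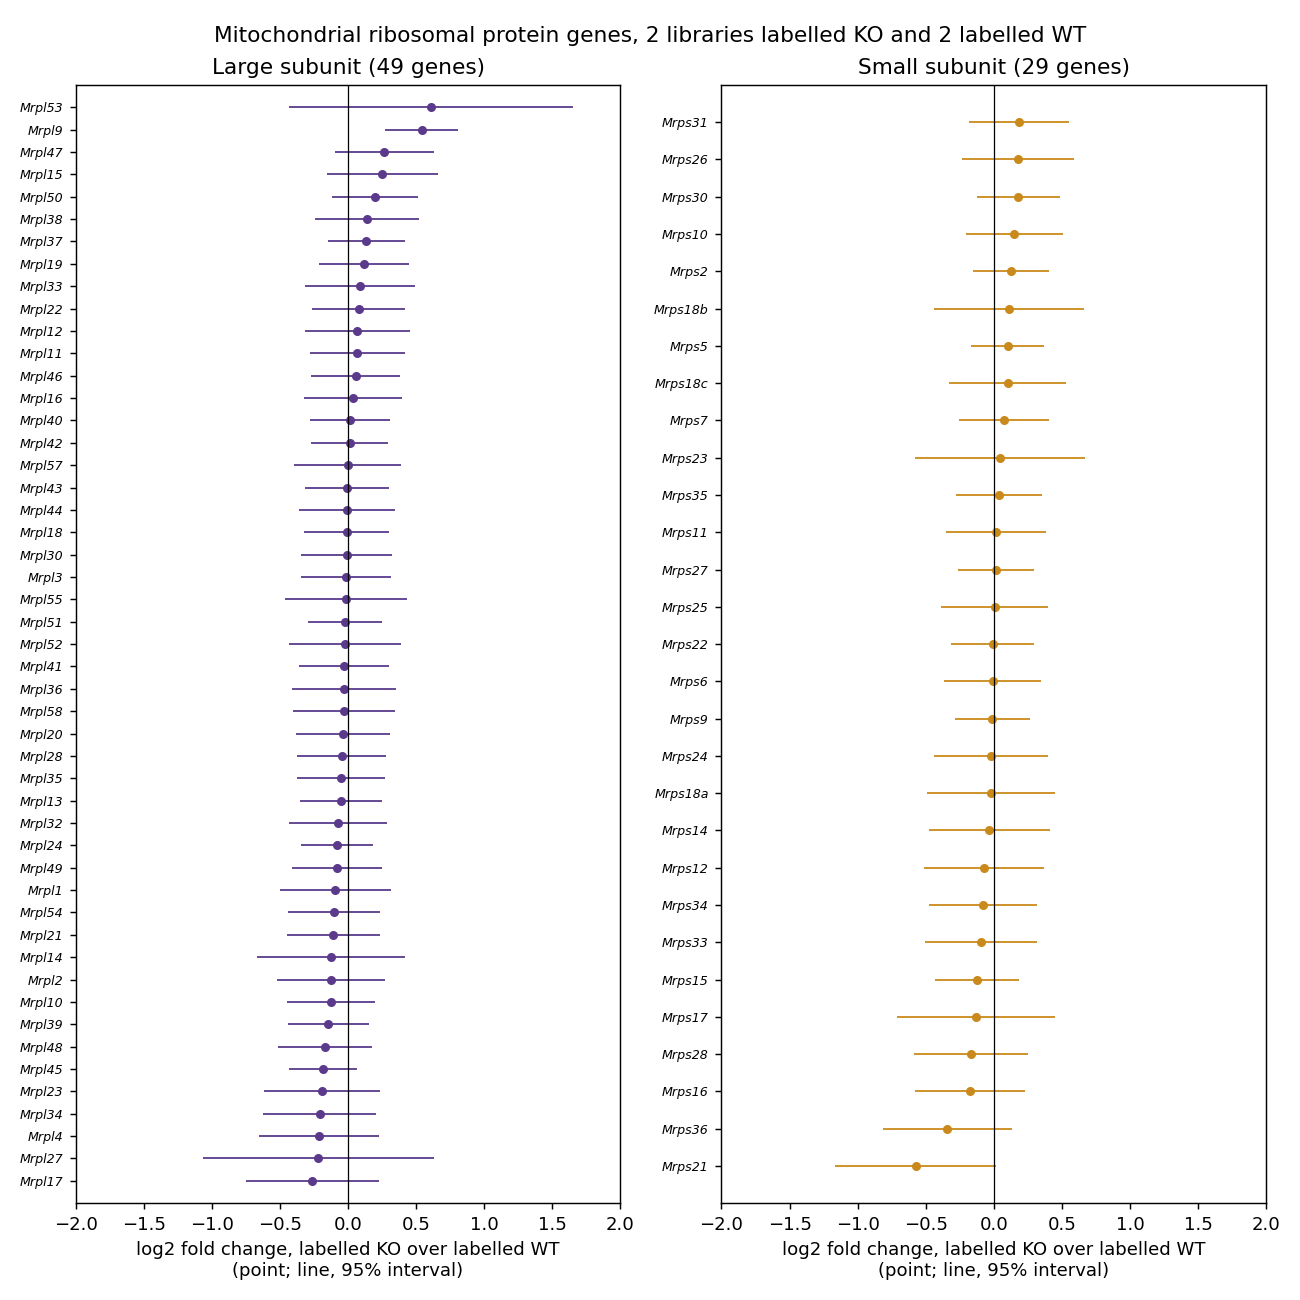
Fitted log2 fold change of each member, labelled KO over labelled WT (point), with its 95% interval (line), for the 49 large and 29 small subunit genes. Mrpl9 is the member whose interval lies wholly above 0, and no interval lies wholly below it.

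Mrpl9, a large-subunit protein homologous to bacterial L9, departed most clearly from 0. Its level was 122 and 114 CPM in the libraries labelled KO, against 77.6 and 84.7 CPM in those labelled WT. Both labelled KO libraries were high and the labels did not overlap. The log2 fold change was 0.54 (SE 0.11, 95% limits 0.27 and 0.81), 1.45-fold higher, with an unadjusted p of 0.00218 and an adjusted p of 0.141 by edgeR. DESeq2 gave an adjusted p of 0.0337, and over the alternatives tried the adjusted p ran from 0.0337 to 0.459 and the log2 fold change from 0.49 to 0.61. Mrpl9 (ENSMUSG00000028140) lies on chromosome 3 from 94443318 to 94451130. Exons of Oaz3 overlap it on the opposite strand, and Oaz3 had 1 count or none in each library.

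The other members that were higher in both libraries labelled KO differed by less. Mrpl47, a large-subunit protein, stood at 32.5 and 29.7 CPM in the labelled KO and 24.7 and 27.0 CPM in the labelled WT libraries, with a log2 fold change of 0.27 (SE 0.15, adjusted p = 0.526 by edgeR). Mrpl50 of the large subunit had 50.4 and 52.1 CPM in the labelled KO and 44.4 and 45.0 CPM in the labelled WT libraries, and a log2 fold change of 0.20 (SE 0.13, adjusted p = 0.586). Neither difference passed, although the libraries of each label kept apart. In the small subunit the log2 fold changes of Mrps31, Mrps10 and Mrps2 were 0.18, 0.15 and 0.13, with adjusted p values of 0.672, 0.733 and 0.706. Leaving out any 1 library moved that of Mrps31 between 0.094 and 0.28 and that of Mrps10 between 0.043 and 0.28, with the lowest value without labelled KO replicate 1 for Mrps31 and without labelled WT replicate 1 for Mrps10. Mrps2, the homologue of bacterial S2, showed 73.5 CPM in each labelled KO library and 68.8 and 65.8 CPM in the labelled WT libraries.

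Mrps21, the homologue of bacterial S21 in the small subunit, lay furthest below 0. It had 17.0 and 27.7 CPM in the libraries labelled KO, against 30.1 and 36.4 CPM in those labelled WT. The labels did not overlap, but the 2 labelled KO libraries differed from each other by more than the nearest libraries of the 2 labels did. The log2 fold change was −0.57 (SE 0.25, 95% limits −1.16 and 0.02, adjusted p = 0.398 by edgeR) and lay between −0.96 and −0.27 when any 1 library was dropped, with −0.27 without labelled KO replicate 1.

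Mrpl45, which anchors the mitoribosome to the inner membrane, stood at 111 and 103 CPM in the labelled KO and 122 and 121 CPM in the labelled WT libraries. Its log2 fold change was −0.18 (SE 0.11, 95% limits −0.44 and 0.07, adjusted p = 0.526). Mrpl48, Mrpl39 and Mrps15, all of which had both libraries labelled KO under both labelled WT, had log2 fold changes of −0.17, −0.14 and −0.12, with adjusted p values from 0.682 to 0.748. That of Mrps15 was −0.21 without labelled KO replicate 1 and −0.033 without labelled KO replicate 2.

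**Figure D3:**
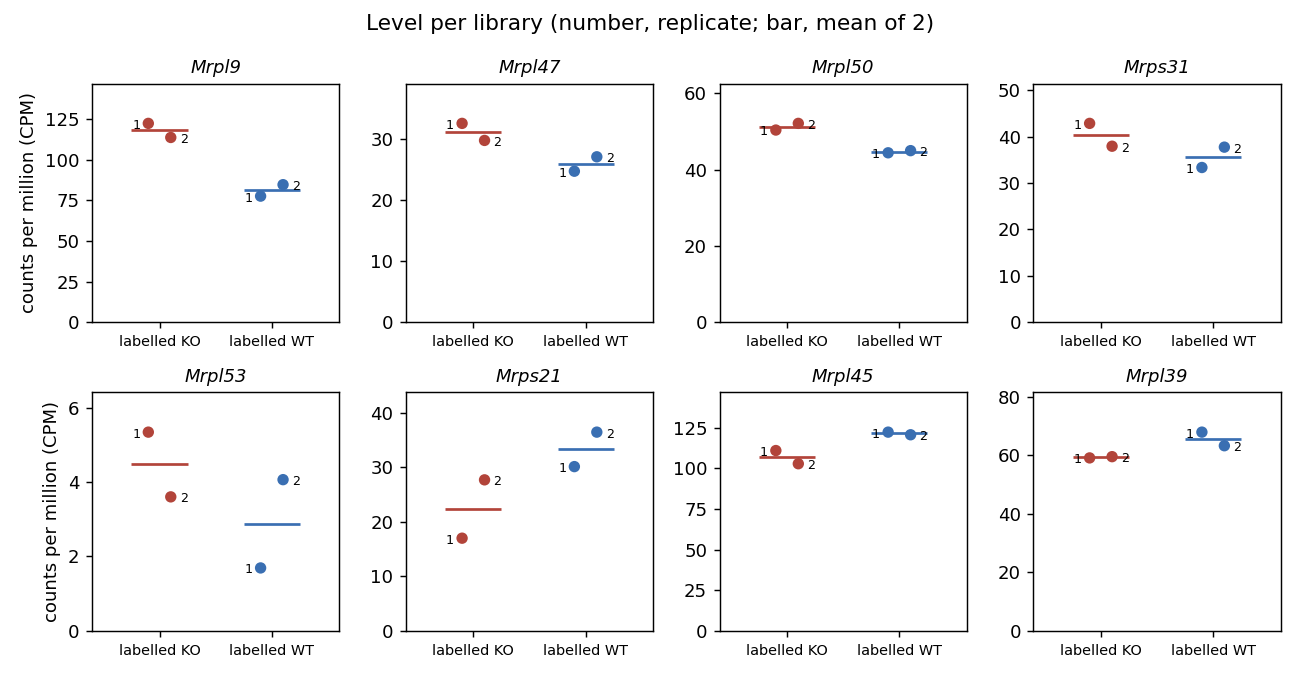
CPM in each library for 8 members (points, numbered by replicate; bar, mean of 2; each axis starts at 0), labelled KO left of labelled WT. Mrpl9 sits at 114 to 122 CPM in the labelled KO and 77.6 to 84.7 CPM in the labelled WT libraries, while Mrpl53 overlaps between labels.

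Further members, picked for their role, showed small values. On the stalk side of the large subunit, Mrpl12 had a log2 fold change of 0.07 (95% limits −0.31 and 0.45), Mrpl10 one of −0.13 (−0.45 and 0.20) and Mrpl11 one of 0.07 (−0.28 and 0.42). Mrpl44, a large-subunit protein with a ribonuclease III-like fold, had 52.4 ± 4.49 CPM in the labelled KO and 52.6 ± 5.71 CPM in the labelled WT libraries (SD, n = 2 each). Mrpl58, which is known to release peptides from stalled mitoribosomes, had 28.9 ± 2.23 CPM in the labelled KO and 29.6 ± 2.67 CPM in the labelled WT libraries (SD, n = 2 each). In the small subunit, Mrps12, of the decoding side, had a log2 fold change of −0.07 (95% limits −0.51 and 0.37), and Mrps16 had one of −0.17 (−0.58 and 0.23). Mrps22, a structural protein of the small subunit, had 56.3 and 54.4 CPM in the labelled KO and 54.7 and 56.7 CPM in the labelled WT libraries. Mrps34, another structural protein of the small subunit, had 58.1 and 47.3 CPM in the labelled KO and 50.4 and 60.7 CPM in the labelled WT libraries.

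The Mrps18 genes encode 3 relatives of bacterial S18 that take different places in the particle. Mrps18a, whose protein sits in the large subunit despite its name, had 62.4 and 42.9 CPM in the labelled KO and 56.3 and 50.6 CPM in the labelled WT libraries. Mrps18b had 63.3 and 73.6 CPM in the labelled KO and 47.9 and 78.5 CPM in the labelled WT libraries. Mrps18c had 27.4 and 28.0 CPM in the labelled KO and 22.2 and 29.3 CPM in the labelled WT libraries. The labels overlapped for all 3, and their log2 fold changes were −0.02, 0.11 and 0.10, with SEs of 0.20, 0.23 and 0.18.

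Some members carry counts that are less certain. Mrpl53 had the fewest, 71 and 52 in the labelled KO and 22 and 69 in the labelled WT libraries, and shares 695 exon bases on the same strand with Gm42688. Its log2 fold change of 0.61 had 95% limits of −0.44 and 1.65, and it was 0.14 with labelled WT replicate 1 left out and 1.39 with labelled WT replicate 2 left out. In all, 8 members share exon bases with a gene on the same strand, Mrps6, Mrps18c and Mrps34 among them, and 28 with a gene on the opposite strand, and whether counting used strand is not given. Processed pseudogenes of 3 members were counted apart from them, and reads may be split between copies. Mrps36-ps1 held 146 and 179 counts in the labelled KO and 178 and 239 counts in the labelled WT libraries, more than Mrps36 itself, which held 121 and 105 counts in the labelled KO and 138 and 172 counts in the labelled WT libraries. Mrpl23-ps1 and Mrpl48-ps held 266 to 450 counts a library. Mrps36, whose product is now known as a subunit of the 2-oxoglutarate dehydrogenase complex, had a log2 fold change of −0.34 (95% limits −0.82 and 0.13), which was −0.51 without labelled KO replicate 1 and −0.18 without labelled KO replicate 2.

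The mitoribosome genes differed between replicate libraries of the same label. The median member differed by 0.147 log2 units between the labelled KO replicates and by 0.233 between the labelled WT replicates, and by 0.0792 between the means of the labels. Over all genes these medians were 0.173, 0.204 and 0.184. A difference between means of 2 libraries is narrower by construction than one between single libraries, so the last value is not a like measure. The members shifted together: 59 of 78 (75.6%) were higher in labelled KO replicate 1 than in replicate 2, and 68 of 78 (87.2%) were higher in labelled WT replicate 2 than in replicate 1, where 49.5% and 49.7% of all genes were. Summed over the 78 members the level was 4947 and 4584 CPM in the labelled KO and 4407 and 5084 CPM in the labelled WT libraries. The labels overlapped, with the lowest and the highest library both labelled WT. Labelled WT replicate 2 was also the library with the most counts and labelled WT replicate 1 the one with the fewest. The labelled KO pair ran the other way: replicate 1, with the higher sum, held 13394074 counts and replicate 2 held 14199020. The part of depth in this shift was not tested. The difference of the means on the log2 scale was 0.00886, with an exact two-sided permutation p of 1, where 2 against 2 libraries allow no p under 0.333.

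The ratio of the subunits differed little between libraries. The summed large-to-small ratio in CPM was 1.958 and 1.952 in the labelled KO and 1.962 and 1.979 in the labelled WT libraries, so the labels did not overlap. The 49 large-subunit genes had a median log2 fold change of −0.02, with 16 positive and 33 negative, and the 29 small-subunit genes one of −0.01, with 14 positive and 15 negative. Both medians turned positive without labelled KO replicate 2 (0.034 and 0.053), without labelled WT replicate 2 (0.058 and 0.11) and with the trend on gene length taken out (0.0091 and 0.01). With each gene centred on its mean over the 4 libraries, the median large-subunit gene minus the median small-subunit gene was −0.00 and −0.06 log2 units in the labelled KO and 0.01 and 0.02 in the labelled WT libraries, again without overlap. The difference between labels was −0.05 log2 units (−0.0312 ± 0.0412 in the labelled KO and 0.0197 ± 0.00679 in the labelled WT, SD, n = 2 each), with an exact two-sided permutation p of 0.333, the smallest this design allows. It was −0.01 once a trend of the values with gene length was taken out, and then p was 0.667 by the same exact test. Placing Mrps30 and Mrps18a, whose proteins belong to the large subunit, with it and leaving out Mrps36 gave −0.04. The p was then also 0.667 by the same exact test.

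**Figure D4:**
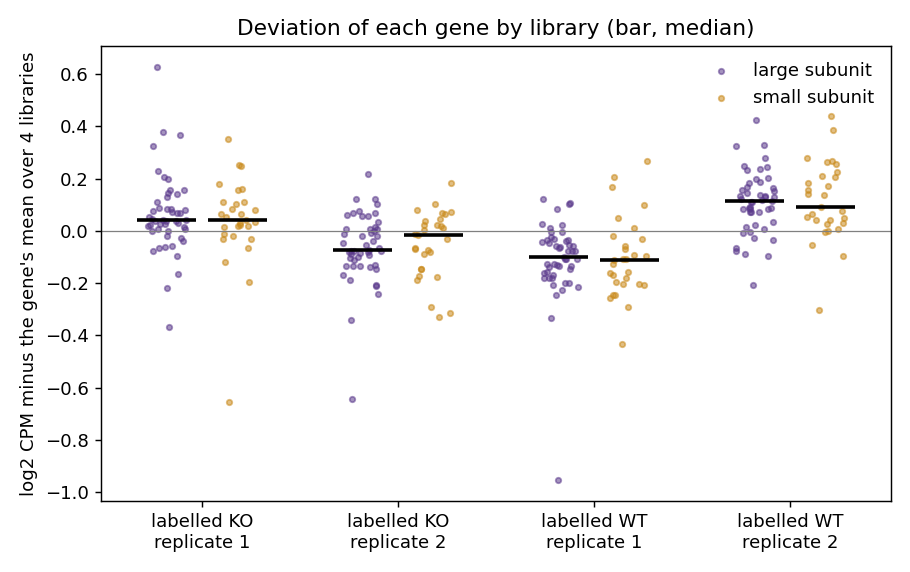
Deviation of each member from its own mean over the 4 libraries (log2 CPM, 1 point a gene; bar, median), by library and subunit, labelled KO left of labelled WT. Both subunits lie high in labelled WT replicate 2 (medians 0.12 and 0.09) and low in labelled WT replicate 1 (−0.10 and −0.11).

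Genes that build or serve the mitoribosome without an Mrpl or Mrps name gave no calls either. Of 55 tested in 4 functional lists, 0 passed by edgeR, DESeq2 or limma, and 2 (3.64%) had an unadjusted p under 0.05, 1 higher and 1 lower, where 12.9% of all genes did. The 5 further mitoribosome proteins had a median log2 fold change of −0.05, and Ptcd3, a small-subunit protein with RNA-binding repeats, stood at 85.7 and 98.3 CPM in the labelled KO and 77.6 and 79.0 CPM in the labelled WT libraries. The 20 translation factors and related genes had a median of 0.08, with 15 positive and 5 negative. Tufm, the elongation factor that brings tRNA to the ribosome, had a log2 fold change of 0.16 (SE 0.12), Guf1, the homologue of bacterial elongation factor 4, one of 0.22 (SE 0.15), and Mpv17l2, an inner membrane protein tied to mitoribosome assembly, one of −0.32 (SE 0.17). The 28 assembly and RNA modification genes had a median of 0.02. Gtpbp10, a GTPase of large-subunit assembly, stood at 14.2 and 18.6 CPM in the labelled KO and 12.1 and 11.7 CPM in the labelled WT libraries, with a log2 fold change of 0.46 (SE 0.19, adjusted p = 0.382 by edgeR). Rcc1l, another assembly factor, had a log2 fold change of 0.35 (SE 0.17), and Tfb1m, which methylates the small ribosomal RNA, one of −0.27 (SE 0.19).

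Both ribosomal RNAs of the mitoribosome had negative values. mt-Rnr1, the small-subunit RNA, stood at 161 and 177 CPM in the labelled KO and 228 and 206 CPM in the labelled WT libraries, a log2 fold change of −0.36 (SE 0.11, adjusted p = 0.274 by edgeR). mt-Rnr2, the large-subunit RNA, stood at 429 and 512 CPM in the labelled KO and 581 and 521 CPM in the labelled WT libraries, a log2 fold change of −0.23 (SE 0.13, adjusted p = 0.528). The labels did not overlap for either, though neither passed. The 13 mRNAs that the mitoribosome translates all lay below 0 (12 or 13 of them in each alternative, 12 with RLE factors), at a median log2 fold change of −0.25 that was −0.08 without labelled WT replicate 1, and 0 passed by edgeR, DESeq2 or limma or had an unadjusted p under 0.05. These libraries were made after mRNA had been purified, so counts of ribosomal RNA do not give its abundance in the cell. For 6 of the 13 mRNAs (46.2%) the labels did not overlap, where 44.9% of all genes did not.

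Promoters were read for 69 of the 78 members, from 250 bases before to 50 after the start of the gene in RefSeq (GRCm38.p6). NRF1, GABPA of the ETS family and YY1 are factors known to control nuclear genes of mitochondria. Both strands were searched for fixed letters: GCGCA and GCGC with any 1 base between them for NRF1, CCGGAAG for ETS factors and AAGATGGC for YY1. Matches to different motifs overlapped in 2 members, an ETS match with a GC box in Mrpl17 and Mrps16. NRF1 letters stood in 13 of the 69 (18.8%), ETS letters in 26 (37.7%) and YY1 letters in 12 (17.4%), where 5.15%, 9.86% and 3.15% of the promoters of 26956 other genes held them, and 12.6%, 22.0% and 5.66% of those of 8674 other tested protein-coding genes. At least 1 of the 3 stood in 43 members (62.3%), against 35.2% of those 8674 genes. Of the 12 with YY1 letters, 8 held them after the start alone. The E-box CACGTG stood in 5 members (7.25%) and in 12.2% of the 8674 genes, the GC box GGGCGG in 34 (49.3%) and 70.4%, and the TATA box TATAAA in 5 (7.25%) and 7.9%. The median GC content was 58.7% for the members' promoters and 61.0% for those of the 8674 genes. By subunit, NRF1 letters were found in 10 of 43 large and 3 of 26 small subunit promoters, and YY1 letters in 6 of 43 and 6 of 26. Members with NRF1 letters had a median log2 fold change of −0.01, as did those without.

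**Figure D5:**
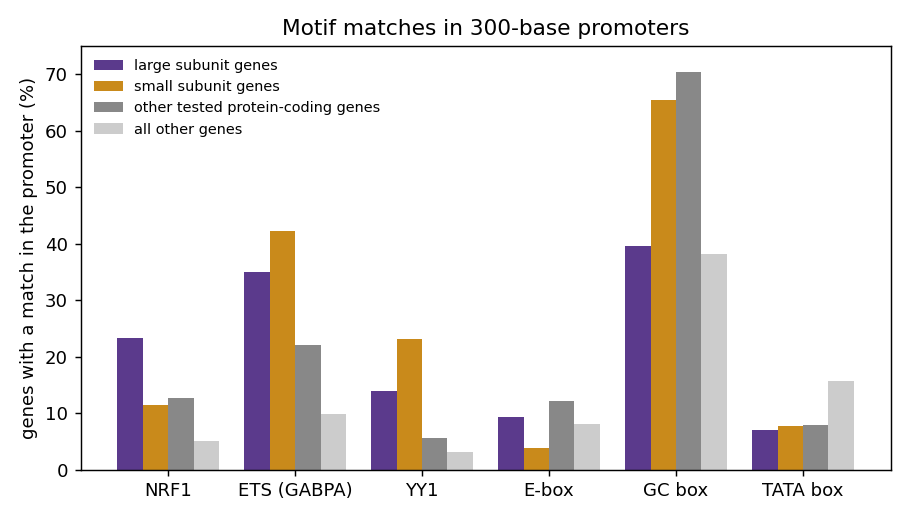
Share of genes (%) whose promoter window (250 bases before to 50 after the start) holds each motif on either strand, for 43 large subunit genes, 26 small subunit genes, 8674 other tested protein-coding genes and 26956 other genes in all. ETS letters stand at 34.9% and 42.3% in the subunits, against 22.0% in other tested protein-coding genes, and the GC box runs the other way at 39.5% and 65.4% against 70.4%.

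The 250 bases before the start are shown for the members with the lowest p among positive and among negative log2 fold changes, Mrpl9 and Mrps21, for the most abundant, Mrpl12, for Mrpl45 with 2 matches here, and for Mrps18a as an ETS example. Capitals mark NRF1 letters, read on either strand, in the first 4 and ETS letters in the last, and each runs 5′ to 3′ on the strand of the gene.
Mrpl9 (chr3:94443086-94443335, plus strand): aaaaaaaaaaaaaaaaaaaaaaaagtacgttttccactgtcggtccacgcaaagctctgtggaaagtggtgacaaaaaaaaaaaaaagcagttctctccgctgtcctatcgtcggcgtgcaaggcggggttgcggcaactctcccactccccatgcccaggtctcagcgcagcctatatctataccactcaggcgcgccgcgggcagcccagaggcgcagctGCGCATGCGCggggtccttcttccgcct
Mrps21 (chr3:95871515-95871764, minus strand): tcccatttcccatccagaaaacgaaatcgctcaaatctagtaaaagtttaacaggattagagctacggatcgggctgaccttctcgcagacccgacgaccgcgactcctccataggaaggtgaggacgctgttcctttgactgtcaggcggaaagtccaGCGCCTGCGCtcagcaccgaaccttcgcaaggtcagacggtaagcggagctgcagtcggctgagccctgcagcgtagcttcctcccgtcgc
Mrpl12 (chr11:120484387-120484636, plus strand): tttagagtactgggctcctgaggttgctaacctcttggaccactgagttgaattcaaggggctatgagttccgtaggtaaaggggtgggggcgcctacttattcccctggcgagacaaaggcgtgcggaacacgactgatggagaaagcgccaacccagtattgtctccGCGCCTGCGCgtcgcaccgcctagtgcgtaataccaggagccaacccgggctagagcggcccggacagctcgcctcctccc
Mrpl45 (chr11:97315466-97315715, plus strand): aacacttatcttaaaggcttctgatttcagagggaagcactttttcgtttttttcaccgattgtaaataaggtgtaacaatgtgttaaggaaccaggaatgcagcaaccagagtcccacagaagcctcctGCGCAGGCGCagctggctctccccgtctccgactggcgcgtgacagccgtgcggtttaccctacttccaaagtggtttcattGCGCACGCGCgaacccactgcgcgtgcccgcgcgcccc
Mrps18a (chr17:46110754-46111003, plus strand): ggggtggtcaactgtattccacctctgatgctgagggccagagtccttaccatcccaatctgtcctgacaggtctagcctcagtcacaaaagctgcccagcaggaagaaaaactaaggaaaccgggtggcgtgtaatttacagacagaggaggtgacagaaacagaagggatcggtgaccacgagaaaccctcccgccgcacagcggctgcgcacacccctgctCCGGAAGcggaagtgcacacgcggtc
Mrpl9 and Mrps21, with log2 fold changes of opposite sign that did not pass by edgeR, both hold NRF1 letters, beginning 28 bases before the start in Mrpl9 and 91 in Mrps21. A match of letters is not a bound site, and no binding was measured.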

How the data were processed

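The authors deposited whole-number counts per gene and FPKM, per the file headers, for 4 libraries of mRNA from activated CD8+ T cells, prepared with a stranded kit per the labels' protocols. The submitters' processing notes name kallisto and GRCm38. The version, strand setting and filters were not given there. Columns were joined to samples through the description codes, and 8 further value columns were not used. Members are protein-coding rows with names that match ^Mrp[ls][0-9]. The members and lists were chosen with earlier results of these data known.

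Counts of all genes were filtered with filterByExpr, given TMM factors and compared between labels, KO over WT, by the two-sided quasi-likelihood test of edgeR 4.0.16 under R 4.3.3, with Benjamini-Hochberg adjustment over 13528 genes and a threshold of 0.05. CPM are scaled by TMM, SE is the size of the log2 fold change over the square root of F, and log2 CPM uses a prior count of 2. The biological coefficient of variation was 15.9%. DESeq2 1.42.0, limma 3.58.1 on log2(FPKM + 1) and on log2(FPKM + 0.1), RLE scaling, no filter, a replicate block and leaving out each library were alternatives. Lists use older symbols from RefSeq where needed, and exon overlaps and start sites use GENCODE M21 (GRCm38), where 96.3% of the table's matched genes have the same coordinates. P values measure the spread between 2 libraries a label. Titles call these biological replicates, with no animal named.

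Genes were named by a rule: called members, up to 6 of the largest differences each way among members of at least 10 mean CPM whose labels do not overlap (5 were lower), the 3 highest and 3 lowest in FPKM in each subunit, members picked for their role, and in each list up to 3 by the same rule. Mrpl23, Wdfy1 and Ncapd2, and the neighbours of members, were named after their values were seen.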

Additional observations from a re-analysis of the deposited data

How the results depend on the processing

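The number of genes called over the whole table was 253 by DESeq2, 146 without a filter on low counts, 5 by limma on log2(FPKM + 1) and 28 with RLE factors. It was 59 without labelled KO replicate 1, 8 without labelled KO replicate 2, 304 with labelled WT replicate 1 left out and 255 with labelled WT replicate 2 left out, and such fits take their spread from the other label's 2 libraries. Among the members the count stayed at 0 in these edgeR and limma fits and was 1, Mrpl9, by DESeq2. Members at an unadjusted p under 0.05 numbered 2 by DESeq2, without a filter and with the replicate block, and 2 to 3 as single libraries were left out; Mrpl9 was among them each time. Over all genes the share at that threshold was 6.04% by DESeq2, 9.95% without a filter and 10.1% with the replicate block. In each of these fits, 2 of 78 members was a smaller share than that. With the replicate number as a block 123 genes were called, 0 of them members. For libraries of the same number, deviations from the label mean had a weak negative correlation across genes (r = −0.168). A crossed pairing, chosen after seeing the data, called 12 genes and 0 members. The block changed no call of a member. The median log2 fold change ran from −0.11 to 0.06 for the large and from −0.078 to 0.11 for the small subunit as single libraries were left out, so its sign is not settled: without labelled WT replicate 2 the small-subunit median was 0.11. The large-to-small difference kept its sign in all 12 alternatives, but not all of them could have changed it. Scaling cancels within a library and a block does not enter this value. It was −0.0509 with RLE factors, −0.0508 without a filter and −0.0509 with the replicate block, against −0.0509 in the main fit. Of 32 named members, 15 kept their sign in all 9 alternatives. The 17 others changed sign as single libraries were left out: Mrpl10 (−0.25 to 0.017), Mrpl11 (−0.077 to 0.24), Mrpl12 (−0.12 to 0.29), Mrpl44 (−0.11 to 0.11), Mrpl54 (−0.22 to 0.019), Mrpl58 (−0.12 to 0.068), Mrps12 (−0.24 to 0.14), Mrps16 (−0.34 to 0.026), Mrps17 (−0.42 to 0.25), Mrps18a (−0.32 to 0.23), Mrps18b (−0.19 to 0.51), Mrps18c (−0.078 to 0.32), Mrps22 (−0.033 to 0.022), Mrps28 (−0.34 to 0.032), Mrps34 (−0.23 to 0.071), Mrps6 (−0.15 to 0.16) and Mrps7 (−0.047 to 0.21). With RLE factors Mrpl44 was 0.0023, and with limma on log2(FPKM + 1) Mrpl44 was 0.014, Mrps22 0.0091 and Mrps6 0.019. The cause was not tested. With 2 libraries a label and a median SE of 0.15 for members, shifts under about 0.5 log2 units could not be told from 0 for many of them.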

Other observations

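Many mitoribosome genes sit head to head with another gene. A protein-coding gene on the opposite strand starts within 1000 bases of the start of 33 of the 78 members (42.3%), 24 of 49 large and 9 of 29 small subunit genes, against 17.4% of 11012 other tested protein-coding genes. Starts here are the outer gene ends in GENCODE, not the RefSeq starts of the promoters. A start on either side counts, so genes that overlap at their starts are included. Mrpl46 and Mrps11, which encode proteins of different subunits, form such a pair, with GENCODE starts 412 bases apart. Mrpl46 had 63.6 and 61.5 CPM in the labelled KO and 55.3 and 65.0 CPM in the labelled WT libraries, and Mrps11 had 36.7 and 32.0 CPM in the labelled KO and 32.5 and 35.4 CPM in the labelled WT libraries. Other partners include Sars2, the mitochondrial seryl-tRNA synthetase, beside Mrps12, Ndufs6 beside Mrpl36 and Ndufb5 beside Mrpl47, both subunits of respiratory complex I, and Psma2, a proteasome subunit, beside Mrpl32. Members with such a partner had a median log2 fold change of −0.01 and those without one of −0.02, and the 30 tested partners had one of −0.01.

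Some partners had values unlike those of their member. Wdfy1, 125 bases from Mrpl44, stood at 4.21 and 16.1 CPM in the labelled KO and 27.0 and 30.02 CPM in the labelled WT libraries (log2 fold change −1.48, SE 0.51, adjusted p = 0.302 by edgeR), while Mrpl44 stood at 55.6 and 49.2 CPM in the labelled KO and 48.6 and 56.6 CPM in the labelled WT libraries. Ncapd2, a condensin subunit 100 bases from Mrpl51, had a log2 fold change of −0.46 (SE 0.11, adjusted p = 0.184) where that of Mrpl51 was −0.02. Differences between a member and its partner were not tested.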
